A study of Mus musculus with 6 samples.

Results

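Kinetochores, centromeres and the spindle checkpoint were followed through 38 listed genes of chromosome segregation, chosen by their known function and read from the probe sets that the platform annotation gives to 1 listed symbol only. Of these, 37 were measured among the 18193 genes of the array. Hjurp, which encodes the chaperone that deposits CENP-A, was not measured by this rule, because its probe sets are paired with several symbols. The samples were mouse hepatic stellate cells, the pericytes of the liver that store vitamin A and turn into matrix-producing myofibroblasts after injury. All 6 samples came from cells of a C57Bl/6 background carrying CMV-rtTA;TRE-GFP-shRNA.p53.1224, a construct that, with doxycycline, makes green fluorescent protein and a hairpin RNA directed at p53. The proliferating group (3 arrays) was kept in doxycycline (1 ug/ml) and has the label p53 knockdown. The senescent group (3 arrays) has the treatment label control and is labelled as expressing p53. Doxycycline, the hairpin and the proliferating state always go together in these samples and cannot be told apart, and the hairpin's target transcript was not analysed here. Whether the 3 arrays of a group stand for separate animals or cultures is not stated, so the p-values below reflect the spread among these 6 samples alone, which may be technical.

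A kinetochore is the protein assembly on each centromere that ties a chromosome to the microtubules of the mitotic spindle. Its inner layer sits on nucleosomes that carry the histone H3 variant CENP-A, and its outer layer holds the NDC80 complex, which grips the microtubule. Unattached kinetochores recruit BUB and MAD proteins that hold back the anaphase promoting complex, so that sister chromatids do not part too early. Many of these genes are transcribed mainly from late S phase to mitosis, and in arrested cells the RB-like proteins and the MuvB core, joined as the DREAM complex, are known to keep such genes low. Senescent cells have left the cell cycle for good, and p53 is known to raise p21, which acts upstream of DREAM.

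In senescent stellate cells 27 of the 37 measured members had less RNA than in proliferating cells, 1 had more as deposited and 9 did not pass the threshold, an adjusted p of 0.05 from limma with Benjamini-Hochberg adjustment over all 18193 genes. Over all genes tested, 10.5% were called lower and 9.49% higher. The largest falls were those of the NDC80 subunit gene Spc24 (2.17-fold), the inner kinetochore gene Cenpp (1.97-fold) and the centromeric histone gene Cenpa (1.93-fold). The median change of the 37 members was -0.57 on the log2 scale, against -0.0018 for all genes. The called members fell by 0.29 to 1.11 (log2), which is 1.22-fold to 2.17-fold with a median of 1.61-fold, and their adjusted p-values ran from 8.71e-05 to 0.048. A fall of at least 0.5 was called for 22 members, and for 4.56% of all genes. Every senescent array lay below every proliferating array for 28 members, against 19.6% of all genes. Every senescent array lay above every proliferating array for 2 members, against 3173 of all 18193 genes. The groups overlapped for the other 7 members, against 11460 of all 18193 genes. All 37 were brighter than 5.57 on all 6 arrays, the level taken as background from olfactory receptor probe sets. The RNA comes from whole cultures, so fewer dividing cells and less of these RNAs per cell cannot be told apart.

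**Figure D1:**
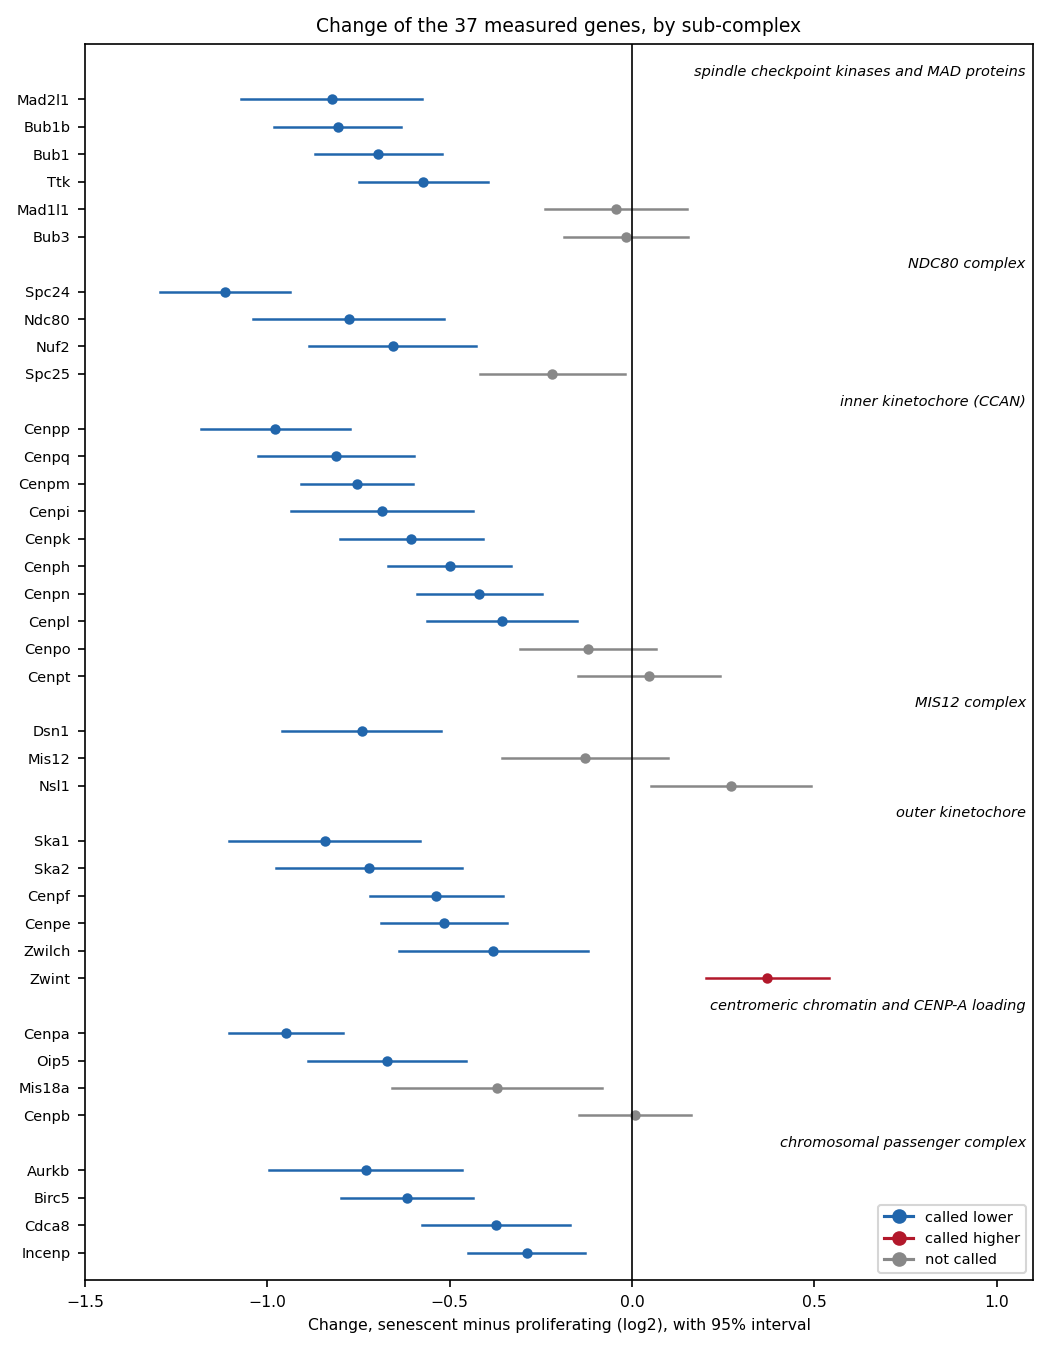
Change of each of the 37 measured members (log2, senescent minus proliferating, x axis), grouped by sub-complex (y axis), with points for the estimate, bars for the unadjusted 95% interval and colour for the call after adjustment over all genes. The 27 called falls lie between -1.11 and -0.29, Zwint at 0.37 is the only called rise as deposited (-0.22 under spike-in scaling), and Spc25, Nsl1 and Mis18a are not called although their unadjusted intervals leave out 0.

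These values are relative to the other genes on each array, because the deposited values were forced to 1 distribution. Array medians lay between 6.15 and 6.19. Bacterial poly-A transcripts, added to RNA before labelling as controls, read 10.52 to 10.72 on the proliferating arrays and 10.99 to 11.51 on the senescent arrays, a difference of 0.60 ± 0.17 (SE, n = 3 per group). The hybridisation controls read 11.22 to 11.38 on the proliferating arrays and 11.27 to 11.51 on the senescent arrays, a difference of 0.085 ± 0.083 (SE). Scaling each array to the poly-A transcripts moved the median of all genes to -0.60 and that of the members to -1.17. It called 35 members lower and 0 higher, beside 83.2% of all genes called lower. Of all calls 1.14% were then rises, against 47.4% as deposited. Centring on genes of middle level moved the median of all genes to 0.067. It called 23 members lower and 1 higher, beside 7.35% of all genes called lower, with 63.2% of all calls as rises. Both scalings add 1 constant per array to every gene, so the distance of the members from the median of all genes could not differ between them. Cdkn1a, the gene of the p21 inhibitor, read 11.00, 11.03 and 11.10 on the proliferating arrays and 12.85, 12.63 and 12.86 on the senescent arrays. That rise was 1.74 ± 0.083 (SE; 3.34-fold, adjusted p = 1.96e-05). Among stellate cell markers, Acta2 and Vim were bright (14.45 and 14.66 in proliferating, 14.57 and 14.75 in senescent cells), while Lrat, at 3.55 and 3.57, and Reln, at 4.25 and 4.21, lay below background. The summed level of the 8 stellate markers was 15.78 to 15.85 in proliferating and 15.81 to 15.82 in senescent cells, with 3 of them lower and 0 higher at the threshold. The 3 were Pdgfrb, Hand2 and Col1a1, with changes of -1.30, -0.85 and -0.56 (adjusted p = 0.000145, 0.000726 and 0.000813 from limma). The sum is set mostly by Acta2 and Vim, the brightest of the 8, and so hides these falls. The 4 biliary markers summed to 10.97 to 11.03 and 11.30 to 11.45, the 4 mesothelial markers to 13.15 to 13.38 and 13.09 to 13.19, the 5 macrophage markers to 8.64 to 8.79 and 8.88 to 8.97, and the 5 endothelial markers to 7.92 to 8.13 and 8.17 to 8.20. The 4 measured hepatocyte markers summed to 7.68 to 8.04 and 7.61 to 7.90, and the 3 measured lymphocyte markers to 6.94 to 7.01 and 6.98 to 7.13. Among these other lists Krt19, Msln, Csf1r and Cdh5 were called higher in senescent cells, with changes of 0.58, 0.79, 0.35 and 0.72. Krt7, Wt1 and Lrrn4 were called lower, with changes of -0.69, -1.11 and -1.80. Adgre1 and Ptprc of the macrophage list, Pecam1 of the endothelial list and Alb of the hepatocyte list were below background on all 6 arrays. By mean level, Cd68, Clec4f and Csf1r (3 of 5 macrophage genes) and Kdr (1 of 5 endothelial genes) lay above background. So did Apoa1 and Ttr (2 of 4 measured hepatocyte genes), Cd3e (1 of 3 measured lymphocyte genes), all 4 biliary genes and all 4 mesothelial genes. The brightest of these were Upk3b, at 12.61 in proliferating and 12.42 in senescent cells, Msln, at 10.79 and 11.58, and Krt19, at 10.57 and 11.15. The part of other cell types in the members' changes was not tested.

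Promoter sequences were read for the elements that are known to govern late cell cycle genes. They are the cell cycle genes homology region, or CHR, which the MuvB core contacts (letters TTTGAA or TTCGAA), the box bound by NF-Y (letters CCAAT) and E2F-like letters (TTCCCGC or TTCGCGC or TTGGCGC), each searched on both strands. RefSeq windows of 250 bases before to 50 after the start (GRCm38.p6) were matched for 31 of the 37 members, not for Spc24, Nsl1, Zwilch, Ska1, Aurkb and Incenp. A gene with several listed starts counted if any of its windows held the motif. The first 2 promoters below are those of the called members with a CHR within 100 bases before the start. Cenpa, Bub1 and Zwint were added after their values were seen, Cenpa and Bub1 as called fallers and Zwint as the only called riser. Each covers the 150 bases before the start on the gene's strand, with matches of any of the 3 motifs in capitals. Cenpm lies at chr15:82244337-82244486 (minus strand), Cenpn at chr8:116921590-116921739 (plus strand), Cenpa at chr5:30666736-30666885 (plus strand), Bub1 at chr2:127831860-127832009 (minus strand) and Zwint at chr10:72654696-72654845 (plus strand).
Cenpm: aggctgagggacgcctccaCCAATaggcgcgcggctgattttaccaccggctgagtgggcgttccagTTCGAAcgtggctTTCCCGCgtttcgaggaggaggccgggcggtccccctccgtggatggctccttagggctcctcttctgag
Cenpn: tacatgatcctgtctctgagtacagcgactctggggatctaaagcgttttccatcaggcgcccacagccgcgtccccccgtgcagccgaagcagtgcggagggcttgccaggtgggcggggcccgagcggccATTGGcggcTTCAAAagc
Cenpa: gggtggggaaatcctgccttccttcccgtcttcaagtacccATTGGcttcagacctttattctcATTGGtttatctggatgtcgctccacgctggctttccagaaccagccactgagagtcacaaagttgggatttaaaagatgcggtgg
Bub1: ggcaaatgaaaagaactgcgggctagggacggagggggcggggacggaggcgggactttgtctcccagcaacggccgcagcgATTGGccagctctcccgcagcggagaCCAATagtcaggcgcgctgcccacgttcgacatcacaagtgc
Zwint: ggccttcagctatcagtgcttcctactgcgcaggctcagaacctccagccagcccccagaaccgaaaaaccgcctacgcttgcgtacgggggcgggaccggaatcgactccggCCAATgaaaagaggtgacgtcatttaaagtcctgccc

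The members' windows held 76 matches in all, of which 4 overlapped a match of another motif. In the Cenpm promoter the CHR letters begin 83 bases before the start and E2F-like letters 70 bases before it. In Cenpn an NF-Y box begins at 18 and a CHR at 9 bases before the start. The Cenpa promoter shows boxes for NF-Y at 109 and 86 bases before the start, and that of Bub1 at 68 and 42. The Zwint promoter also has an NF-Y box, at 37 bases before the start, and no CHR letters in its 300 bases. Of the 31 promoters, 14 (45.2%) held a CHR anywhere in the 300 bases, against 19.2% of the 32851 promoters in the table. The NF-Y box was found in 20 (64.5%, against 37.4%) and E2F-like letters in 9 (29.0%, against 8.07%). Within the 100 bases before the start the CHR was found in 3 of 31 (9.68%, against 6.13%), the NF-Y box in 16 (51.6%, against 18.9%) and E2F-like letters in 4 (12.9%, against 3.16%). The comparison shares count every promoter singly, whereas a member counted if any of its windows held the motif. Counted by gene, 2515 of the 14368 array genes with a promoter held a CHR, 6040 an NF-Y box and 1985 E2F-like letters in the 300 bases. Within the 100 bases before the start these counts were 735, 3478 and 812.

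Most CHR letters of the members lay around the start itself. Within 50 bases on each side of it, a window chosen after the positions were seen, 11 of 31 members held a CHR (35.5%), against 5.31% of all promoters. They were 9 of the 22 called lower and 2 of the 9 others. In the further 200 bases upstream the CHR share was 5 of 31 (16.1%, against 14.7% of all promoters). Bub3 counted in both windows through the same site, seen from different listed starts. The NF-Y box was held by 13 of 31 members within 50 bases of the start (41.9%, against 13.6% of all promoters). Further upstream it was held by 15 of 31 (48.4%, against 28.4%). The sites below show the CHR in capitals with 12 bases on each side, on the strand that carries it, for 5 members that fell and, as a contrast, for Spc25 and Bub3, which were not called. Cenpa is at chr5:30666890-30666919 (plus strand), Ndc80 at chr17:71526811-71526840 (plus strand), Bub1 at chr2:127831828-127831857 (minus strand), Ttk at chr9:83834684-83834713 (minus strand), Cenpf at chr1:189688067-189688096 (minus strand), Spc25 at chr2:69206172-69206201 (minus strand) and Bub3 at chr7:131560315-131560344 (minus strand).
Cenpa: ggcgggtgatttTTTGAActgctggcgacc
Ndc80: aacccaaggcggTTTGAAttttaaagtttc
Bub1: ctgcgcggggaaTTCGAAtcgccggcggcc
Ttk: tccggaaacacgTTTGAAatttccccgctg
Cenpf: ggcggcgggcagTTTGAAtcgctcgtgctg
Spc25: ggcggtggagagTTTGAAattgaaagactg
Bub3: tcattggctgatTTTGAAcgccaacggctc

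The capital letters start 17 bases after the start in Cenpa, 30 in Ndc80, 15 in Bub1, 8 in Ttk, 3 in Cenpf and 25 in Spc25, counting the first transcribed base as 1. In Bub3 they start 43 bases before 1 listed start and 167 bases before another. Bub1b and Oip5 also held a CHR within 50 bases of the start, at 41 and 34 bases after it. Among the 14368 array genes with a promoter, 665 held a CHR in this window, and 19.7% of them were called lower, against 10.1% of the rest. Their median change was -0.053. A match of 6 letters is a description of the sequence and says nothing about what bound there.

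**Figure D2:**
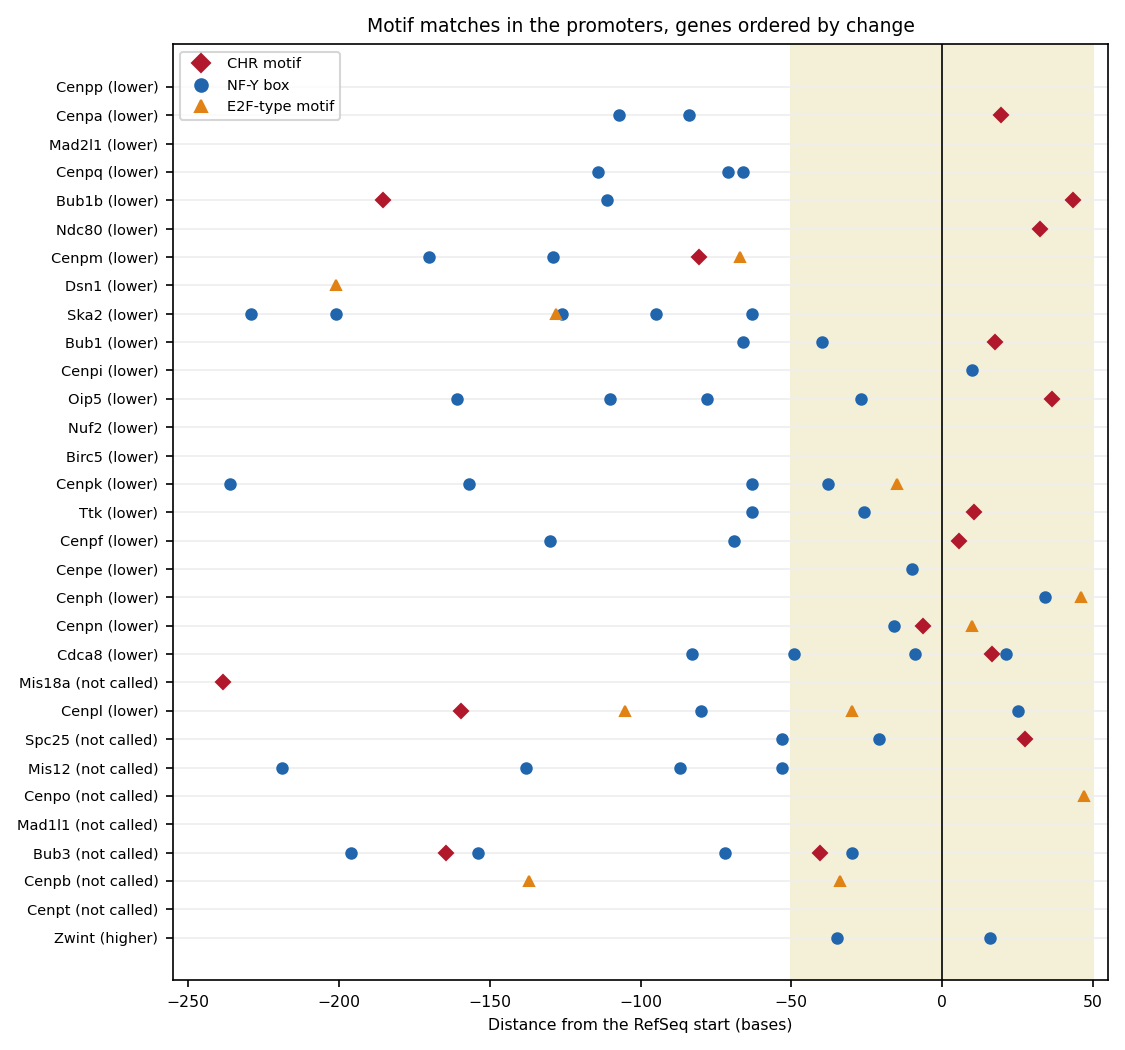
Positions of CHR, NF-Y box and E2F-like matches relative to the start (bases, x axis) in the promoters of the 31 members that were matched, one row per gene ordered by its change (y axis). CHR letters gather within 50 bases of the start in 11 genes, while NF-Y boxes lie mainly upstream.

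The spindle checkpoint genes fell in 4 of 6 cases, by 0.57 to 0.82, with a median over the 6 of -0.63. Bub1, the kinase that marks kinetochores for checkpoint assembly and whose promoter and site are shown above, read 11.53, 11.61 and 11.61 on the proliferating arrays and 10.91, 10.97 and 10.78 on the senescent arrays (log2 values, replicates 1 to 3 in each group, here and below). It fell by 0.70 ± 0.076 (SE; 1.62-fold, adjusted p = 0.000612). Bub1b, which encodes BUBR1, a part of the mitotic checkpoint complex that blocks CDC20, read 10.32, 10.49 and 10.37 on the proliferating arrays and 9.51, 9.62 and 9.63 on the senescent arrays. Its fall was 0.81 ± 0.076 (SE; 1.75-fold, adjusted p = 0.000306). The groups lay apart for both genes by more than the spread within either. Mad2l1 encodes MAD2, the checkpoint protein that changes shape at unattached kinetochores and binds CDC20, and it read 12.24, 12.53 and 12.54 on the proliferating arrays and 11.68, 11.71 and 11.45 on the senescent arrays. RNA of Mad2l1 fell by 0.82 ± 0.11 (SE; 1.77-fold, adjusted p = 0.00142). Ttk, the MPS1 kinase that starts checkpoint signalling, read 9.48, 9.67 and 9.66 on the proliferating arrays and 9.03, 9.08 and 8.99 on the senescent arrays. A fall of 0.57 ± 0.077 (SE; 1.49-fold, adjusted p = 0.00161) was found for Ttk in its brightest probe set, and with its probe sets averaged the value was -0.32 (adjusted p = 0.0204). In each of these 4 genes proliferating replicate 1 was the lowest of its group and still stood above every senescent array.

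Bub3, the adaptor that carries BUB1 and BUBR1 to the kinetochore, did not follow its partners. It read 12.46, 12.63 and 12.60 on the proliferating arrays and 12.58, 12.51 and 12.56 on the senescent arrays, so that the groups overlapped. The change was -0.017 ± 0.074 (SE; adjusted p = 0.913), with a 95% interval of -0.19 to 0.15. Its 4 other probe sets had estimates of 0.07 to 0.39, none of them called. Mad1l1, whose product anchors MAD2 at the kinetochore, read 5.76, 5.87 and 6.05 on the proliferating arrays and 5.84, 5.86 and 5.85 on the senescent arrays, an overlap of the groups with a change of -0.044 ± 0.085 (SE; adjusted p = 0.786). These levels lie close to the background of 5.57, where a fall like that of its partners would be hard to see. Its other probe set, at a mean of 3.95, was below background.

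**Figure D3:**
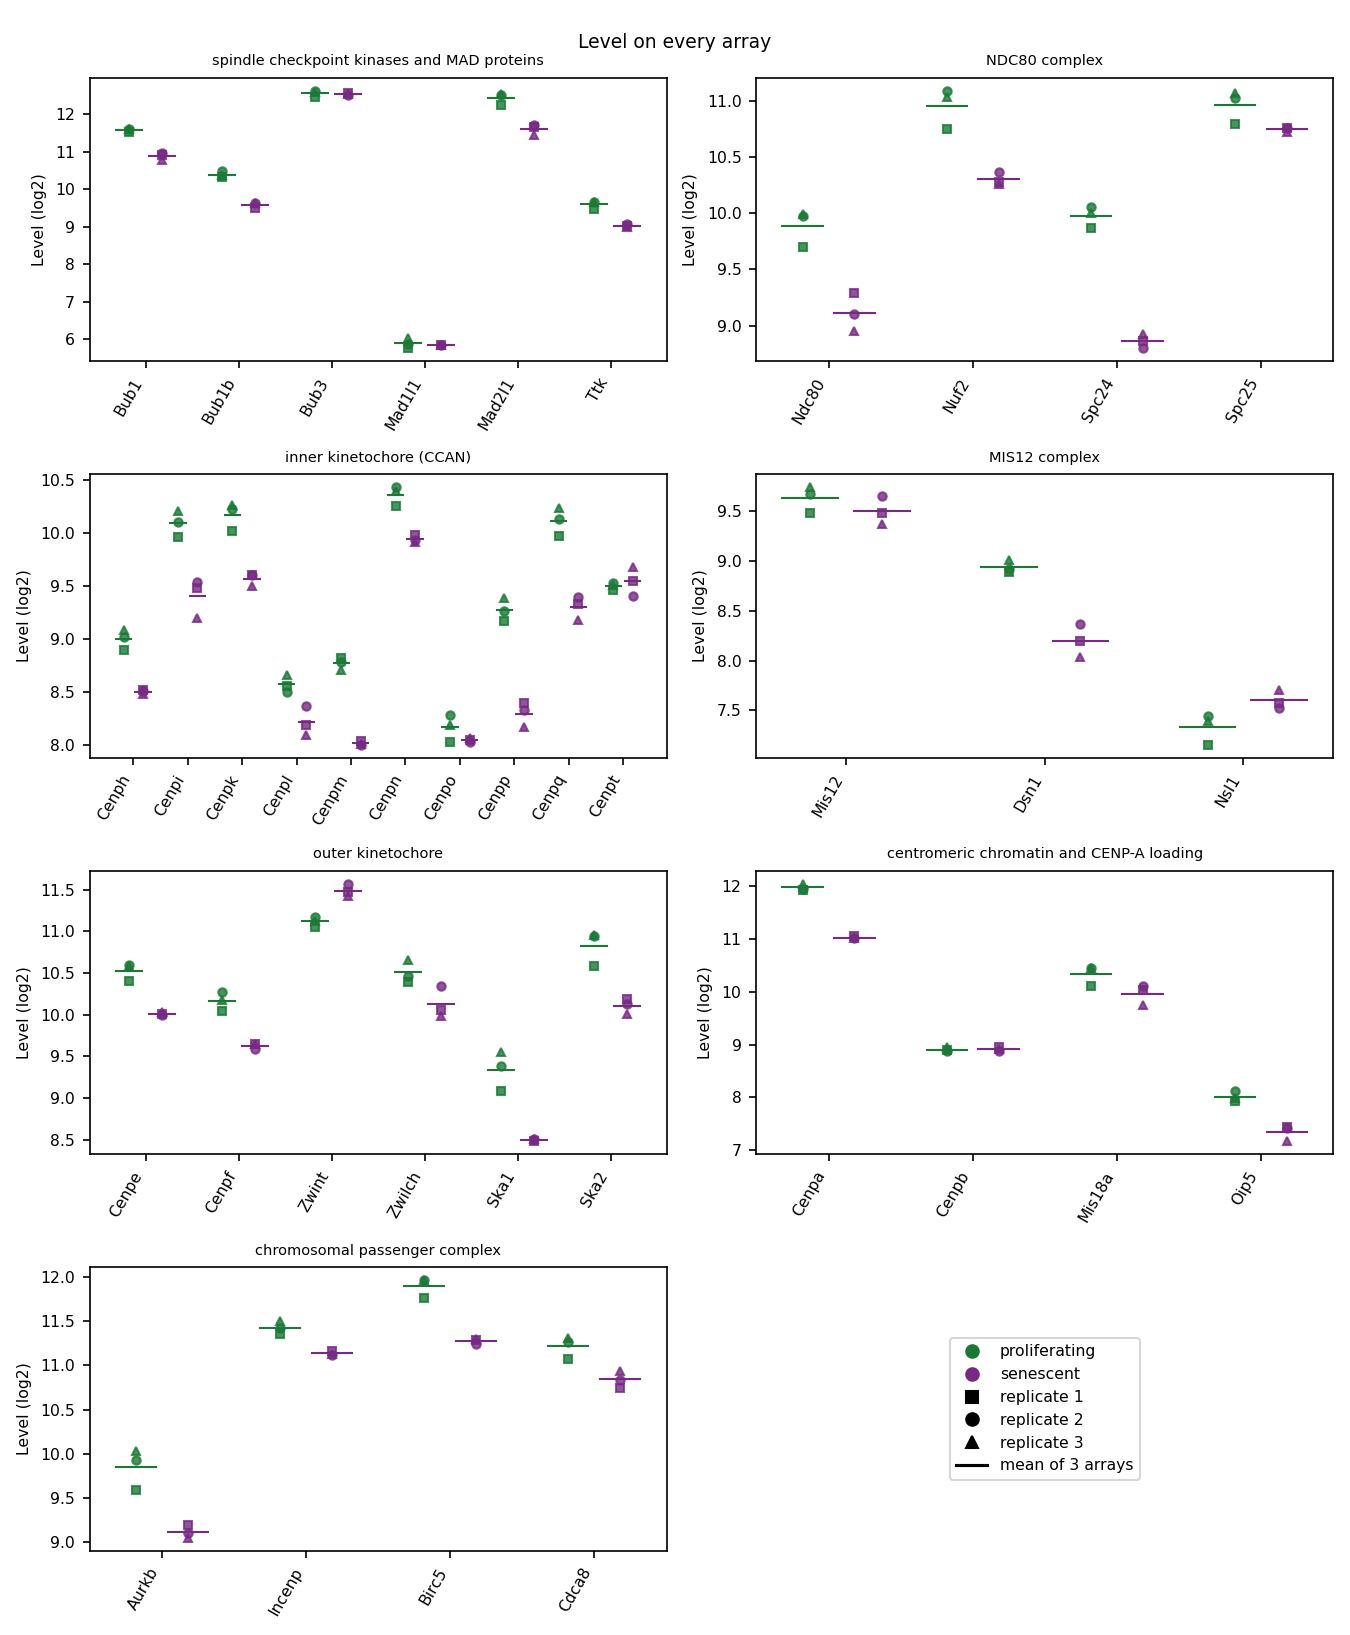
Log2 level on each of the 6 arrays (y axes, log2 units, not starting at 0) for all 37 measured members, with a panel per sub-complex, a symbol per replicate and a line at each group's mean. Senescent arrays lie below proliferating arrays without overlap for 28 genes and above them for Zwint and Nsl1, as deposited, where spike-in scaling turned both to -0.22 and -0.32.

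The NDC80 complex fell in 3 of its 4 subunits, with a median over the 4 of -0.72. Spc24, which with SPC25 joins the complex to the inner kinetochore, read 9.87, 10.06 and 10.00 on the proliferating arrays and 8.87, 8.80 and 8.92 on the senescent arrays. It fell by 1.11 ± 0.078 (SE; 2.17-fold, adjusted p = 8.71e-05), the largest fall and the smallest p among the members. Ndc80 encodes HEC1, the subunit that contacts the microtubule, and read 9.70, 9.97 and 10.00 on the proliferating arrays and 9.29, 9.10 and 8.95 on the senescent arrays. Its fall was 0.78 ± 0.11 (SE; 1.71-fold, adjusted p = 0.00237). Nuf2, the partner that forms a dimer with NDC80, read 10.75, 11.09 and 11.04 on the proliferating arrays and 10.28, 10.37 and 10.26 on the senescent arrays. RNA of Nuf2 fell by 0.66 ± 0.10 (SE; 1.58-fold, adjusted p = 0.00277). For all 3 the lowest proliferating value stood above the highest senescent value, by a wide gap in Spc24 and a narrower one in Ndc80 and Nuf2. Spc25, the dimer partner of SPC24, read 10.80, 11.03 and 11.07 on the proliferating arrays and 10.76, 10.76 and 10.73 on the senescent arrays. Its groups lay apart by only a small step, between proliferating replicate 1 and the senescent arrays, and the change of -0.22 ± 0.087 (SE; adjusted p = 0.124) was not called. Without proliferating replicate 1 it was -0.30 (adjusted p = 0.0252).

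Of the 10 genes of the inner kinetochore, the constitutive centromere associated network (CCAN) that reads CENP-A nucleosomes, 8 fell and 2 did not pass, with a median of -0.55. Cenpp, Cenpq and their neighbours CENP-O and CENP-U form a peripheral arm of this network. Cenpp read 9.17, 9.27 and 9.39 on the proliferating arrays and 8.40, 8.33 and 8.17 on the senescent arrays. It fell by 0.98 ± 0.089 (SE; 1.97-fold, adjusted p = 0.000263). Cenpq read 9.97, 10.13 and 10.23 on the proliferating arrays and 9.33, 9.40 and 9.18 on the senescent arrays, and its fall was 0.81 ± 0.094 (SE; 1.76-fold, adjusted p = 0.000803). For both genes the groups lay apart. Cenpo, of the same arm, was not called (-0.12 ± 0.082, SE; adjusted p = 0.374), and its groups overlapped.

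Cenph, Cenpi, Cenpk and Cenpm encode the subunits of another CCAN assembly, which bridges CENP-A chromatin and the outer layer, and all 4 fell. Cenpm, the pseudo-GTPase of the 4, whose promoter is shown above, read 8.82, 8.78 and 8.71 on the proliferating arrays and 8.04, 8.002 and 8.01 on the senescent arrays. It fell by 0.75 ± 0.067 (SE; 1.69-fold, adjusted p = 0.000232) and had narrow spreads in both groups (SD 0.055 and 0.019). Cenpi read 9.97, 10.10 and 10.21 on the proliferating arrays and 9.49, 9.54 and 9.20 on the senescent arrays, with senescent replicate 3 the lowest array. Its fall was 0.68 ± 0.11 (SE; 1.61-fold, adjusted p = 0.00336). Cenpk read 10.02, 10.23 and 10.27 on the proliferating arrays and 9.61, 9.60 and 9.50 on the senescent arrays. RNA of Cenpk fell by 0.61 ± 0.085 (SE; 1.52-fold, adjusted p = 0.00196). Cenph read 8.90, 9.02 and 9.09 on the proliferating arrays and 8.52, 8.51 and 8.48 on the senescent arrays, a fall of 0.50 ± 0.073 (SE; 1.41-fold, adjusted p = 0.00235). In these 4 genes no senescent array reached any proliferating array.

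CENP-N and CENP-L form the dimer that recognises the CENP-A nucleosome. Cenpn, whose promoter is shown above, fell by 0.42 ± 0.075 (SE; adjusted p = 0.00572), and Cenpl by 0.36 ± 0.090 (SE; adjusted p = 0.0254). The Cenpl call was lost without proliferating replicate 1, proliferating replicate 3, senescent replicate 1 or senescent replicate 3 (adjusted p = 0.05001, 0.0925, 0.0832 and 0.0762), and on centring at middle-level genes (0.0561). Cenpt, the histone-fold protein that links DNA to NDC80 directly, had a change of 0.046 ± 0.085 (SE; adjusted p = 0.777), and its groups overlapped.

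The MIS12 complex, which connects the inner kinetochore with NDC80, differed among its 3 measured subunits. Dsn1, a subunit phosphorylated by Aurora B, read 8.88, 8.92 and 9.01 on the proliferating arrays and 8.19, 8.37 and 8.04 on the senescent arrays. It fell by 0.74 ± 0.095 (SE; 1.67-fold, adjusted p = 0.00127), and the groups lay apart. Mis12 had a change of -0.13 ± 0.099 (SE; adjusted p = 0.44) with overlapping groups. Nsl1 read 7.16, 7.44 and 7.39 on the proliferating arrays and 7.58, 7.53 and 7.71 on the senescent arrays, with every senescent array above every proliferating array. The change of Nsl1 was 0.27 ± 0.096 (SE; adjusted p = 0.0853), not called, while its other probe set gave -0.50 ± 0.18 (SE; adjusted p = 0.126 over all probe sets), so that the direction depends on the probe set. The value of 0.27 passed among genes above the median level (adjusted p = 0.0388), and under spike-in scaling it was -0.32.

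All 6 genes of the outer kinetochore list were called, 5 lower and 1 higher, with a median of -0.53. Ska1, of the SKA complex that tracks microtubule ends, read 9.09, 9.38 and 9.55 on the proliferating arrays and 8.48, 8.50 and 8.51 on the senescent arrays. It fell by 0.84 ± 0.11 (SE; 1.79-fold, adjusted p = 0.00161). Ska2, of the same complex, read 10.59, 10.94 and 10.96 on the proliferating arrays and 10.19, 10.13 and 10.01 on the senescent arrays, with proliferating replicate 1 below the others of its group. Its fall was 0.72 ± 0.11 (SE; 1.65-fold, adjusted p = 0.00294). Cenpe, the kinesin that carries chromosomes to the spindle equator, read 10.41, 10.59 and 10.59 on the proliferating arrays and 10.00, 10.00 and 10.03 on the senescent arrays. RNA of Cenpe fell by 0.52 ± 0.075 (SE; 1.43-fold, adjusted p = 0.00233), with a spread of 0.10 (SD) in the proliferating and 0.018 in the senescent group. Cenpf, a large coiled-coil protein that builds up in G2 and M phase, read 10.05, 10.28 and 10.18 on the proliferating arrays and 9.65, 9.58 and 9.65 on the senescent arrays. A fall of 0.54 ± 0.079 (SE; 1.45-fold, adjusted p = 0.00244) was found in its brightest probe set, while the other 2 gave -0.088 and -0.093 and were not called, and with all 3 averaged the value was -0.24 (adjusted p = 0.213). Zwilch, of the RZZ complex that brings dynein to kinetochores, fell by 0.38 ± 0.11 (SE; adjusted p = 0.048). That call was lost in 5 of the 6 fits that left out 1 array (without proliferating replicates 1, 2 and 3, adjusted p = 0.0507, 0.0847 and 0.149, and without senescent replicates 1 and 3, 0.143 and 0.144), and on centring at middle-level genes (0.0967).

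Zwint, which encodes the protein that recruits the RZZ complex to the KNL1 scaffold, was the only member called higher. It read 11.05, 11.18 and 11.13 on the proliferating arrays and 11.47, 11.57 and 11.43 on the senescent arrays, so that every senescent array was above every proliferating array. The rise was 0.37 ± 0.074 (SE; 1.29-fold, adjusted p = 0.00921) as deposited, and under spike-in scaling the value was -0.22 (adjusted p = 0.276). Of its 7 probe sets, 3 were called higher in a fit over all probe sets (0.37, 0.28 and 0.29), where 5.99% of all probe sets were called higher. The other 4 gave 0.22, 0.15, -0.01 and 0.066, and the mean of all 7 gave 0.19 (adjusted p = 0.0658).

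Centromeric chromatin was represented by 4 measured genes, of which 2 fell and 2 did not pass. Cenpa, the histone H3 variant that marks the centromere, read 11.93, 11.95 and 12.05 on the proliferating arrays and 11.05, 11.02 and 11.01 on the senescent arrays. It fell by 0.95 ± 0.068 (SE; 1.93-fold, adjusted p = 9.34e-05), with an SD of 0.064 in the proliferating and 0.021 in the senescent group. A dimmer Cenpa probe set fell by 1.17 ± 0.15 (SE; adjusted p = 0.00237 over all probe sets), and another, below background, gave -0.018. Oip5 encodes MIS18-beta, which with MIS18-alpha prepares centromeres for new CENP-A, and read 7.93, 8.12 and 7.98 on the proliferating arrays and 7.43, 7.41 and 7.17 on the senescent arrays. Its fall was 0.67 ± 0.095 (SE; 1.59-fold, adjusted p = 0.00195), with the groups apart. Mis18a had a change of -0.37 ± 0.13 (SE; adjusted p = 0.0764), and without proliferating replicate 1 it was -0.48 (adjusted p = 0.0255). Cenpb, which binds a motif in centromeric satellite DNA, had a change of 0.009 ± 0.067 (SE; adjusted p = 0.95), with a 95% interval of -0.14 to 0.16.

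The chromosomal passenger complex corrects wrong attachments, and all 4 of its genes fell, with a median of -0.50. Aurkb, the Aurora B kinase that is its enzyme, read 9.59, 9.93 and 10.03 on the proliferating arrays and 9.19, 9.11 and 9.05 on the senescent arrays. It fell by 0.73 ± 0.12 (SE; 1.66-fold, adjusted p = 0.00327). Birc5 encodes survivin, the subunit that docks the complex at centromeres, and read 11.76, 11.96 and 11.96 on the proliferating arrays and 11.29, 11.25 and 11.30 on the senescent arrays. Its fall was 0.62 ± 0.079 (SE; 1.53-fold, adjusted p = 0.00127). For both genes proliferating replicate 1 was the lowest of its group and above all senescent arrays. Cdca8, which encodes borealin, fell by 0.37 ± 0.088 (SE; adjusted p = 0.0199), and Incenp, the scaffold, by 0.29 ± 0.070 (SE; adjusted p = 0.0222). The Cdca8 call was lost without proliferating replicates 2 and 3 and senescent replicates 1 and 2 (adjusted p = 0.0640, 0.0759, 0.0755 and 0.0617), and on centring at middle-level genes (0.0651). That of Incenp was lost without any 1 array other than proliferating replicate 1 (0.0657, 0.0946, 0.0582, 0.0614 and 0.0549, for proliferating replicates 2 and 3 and senescent replicates 1, 2 and 3), on centring (0.0743) and with its probe sets averaged (-0.12, adjusted p = 0.269). The next brightest Incenp probe set gave -0.37 ± 0.076 (SE; adjusted p = 0.0162 over all probe sets). The others above background gave 0.16 and -0.15, not called.

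Across the sub-complexes members without a call stood beside partners that fell, as was the case for Bub3, Mad1l1 (read close to background), Cenpo, Cenpt, Mis12 and Cenpb. The 9 members without a call ranged from -0.37 to 0.27, with a median of -0.044 and adjusted p-values of 0.0764 to 0.95. A p above the threshold does not show that these RNAs were equal in both groups. Of the 6 members read from a type of probe set that can bind several transcripts (Bub3, Cenpo, Mis18a, Aurkb, Incenp and Cdca8), 3 were among these 9.

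**Figure D4:**
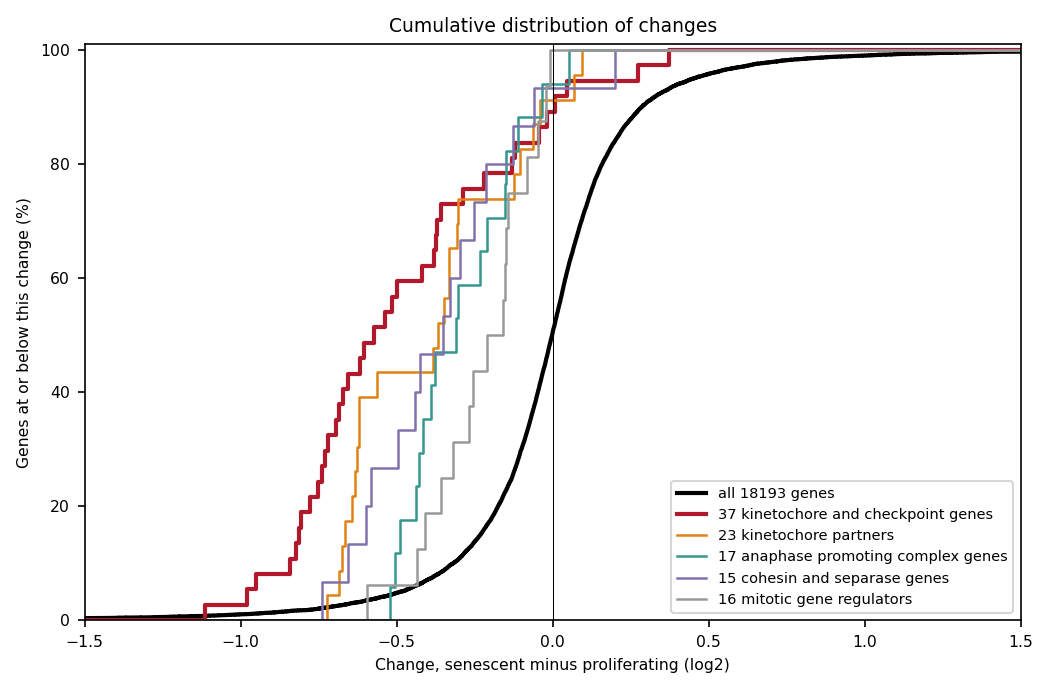
Cumulative share of genes (y axis, percent) by change (x axis, log2, senescent minus proliferating) for the 37 measured members, the 4 lists of related genes and all 18193 genes. The median of the members is -0.57 and that of all genes -0.0018, with the 4 related lists between them.

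The 37 measured members had 81 probe sets in all, and 22 of these members had several. Of the 44 that were not the brightest of their gene, 11 were called lower and 2 higher, the latter both of Zwint, in a fit over all probe sets where 6.39% were called lower. Beside the brightest probe sets of called fallers stood 24 dimmer ones, of which 18 were above background. Of those 18, 10 were called lower and 17 had estimates below 0.

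The members also moved together between the arrays of the proliferating group. Proliferating replicate 1 was the lowest of its group for 34 of 37 members (91.9%), against 42.4% of all genes. The median deviation of the members from their group's mean was -0.12 on that array, and 0.056 and 0.077 on proliferating replicates 2 and 3. For all genes these deviations were -0.016, 0.011 and -0.0017. In the senescent group replicate 3 was the lowest for 22 of 37 members (59.5%, against 33.2% of all genes). The members' median deviations there were small, at 0.017, 0.0069 and -0.028 on replicates 1 to 3, beside 0.0054, -0.011 and 0.012 for all genes. Without proliferating replicate 1 the counts were 27 lower and 1 higher and the members' median was -0.63. Leaving out each array in turn gave 23 to 27 members lower.

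**Figure D5:**
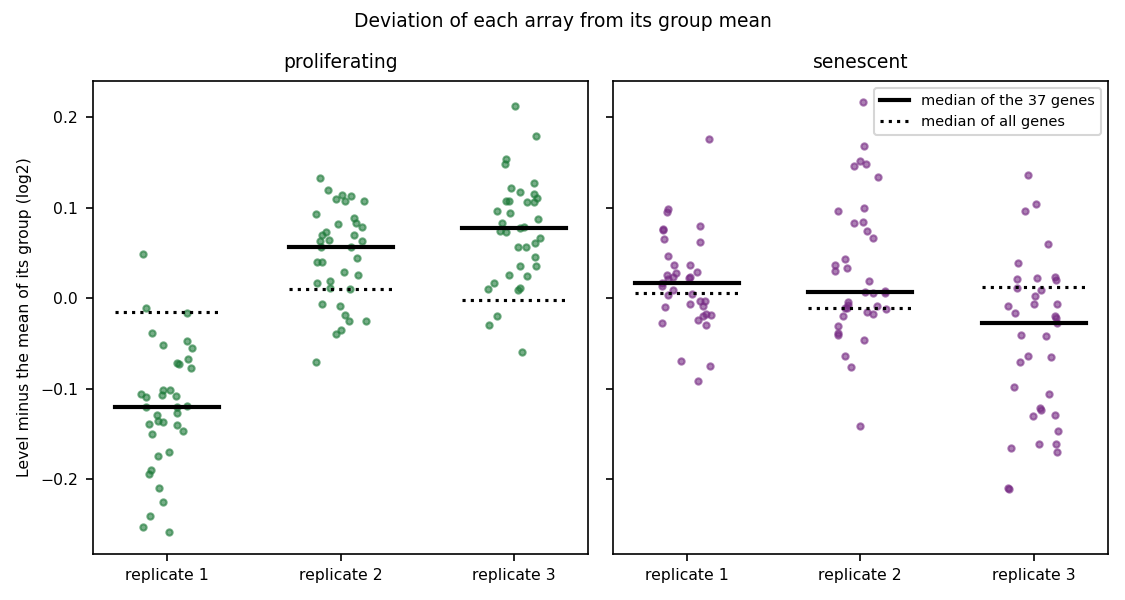
Deviation of each member from the mean of its own group (log2, y axis) on each of the 6 arrays (x axis), with points for the 37 members, a solid line for their median and a dotted line for the median of all genes. Proliferating replicate 1 has the lowest median, -0.12, and the senescent arrays lie between -0.028 and 0.017.

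Other genes of the same pathways were read from 4 lists. Of 23 measured kinetochore partners, 15 fell and 8 did not pass, with a median of -0.37 and 10 of them lower by at least 0.5. Sgo1, the shugoshin that guards centromeric cohesion, fell by 0.72 ± 0.084 (SE; 1.65-fold, adjusted p = 0.000828). Itgb3bp, which encodes the CCAN subunit CENP-R, fell by 0.69 ± 0.11 (SE; 1.61-fold, adjusted p = 0.00398). Kif2c, the microtubule-depolymerising kinesin MCAK, fell by 0.68 ± 0.11 (SE; 1.60-fold, adjusted p = 0.00383). With probe sets averaged, Itgb3bp and Kif2c gave -0.36 and -0.38 and passed (adjusted p = 0.00855 and 0.0101). Without proliferating replicate 2, and likewise without replicate 3 of that group, 9 partners were called lower.

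The anaphase promoting complex and its helpers, which the checkpoint restrains, fell in 10 of 17 genes, with a median of -0.31. The largest falls were those of subunit genes. Cdc26 fell by 0.52 ± 0.070 (SE; 1.43-fold, adjusted p = 0.0016). Anapc1 fell by 0.51 ± 0.064 (SE; 1.42-fold, adjusted p = 0.0012). Anapc5 fell by 0.49 ± 0.073 (SE; 1.40-fold, adjusted p = 0.00259). With probe sets averaged, the calls of Cdc26 (-0.11, adjusted p = 0.388) and Anapc1 (-0.29, adjusted p = 0.0581) were lost. Without proliferating replicate 3, and likewise without senescent replicate 2, 6 of these genes were called lower. Cohesin holds sister chromatids together until separase cuts it, and 11 of 15 genes of that list fell, with a median of -0.35. Pds5b, a cohesin regulator, fell by 0.74 ± 0.13 (SE; 1.67-fold, adjusted p = 0.00565). Esco2, which acetylates cohesin in S phase, fell by 0.66 ± 0.11 (SE; 1.58-fold, adjusted p = 0.00458). Espl1, separase itself, fell by 0.60 ± 0.074 (SE; 1.51-fold, adjusted p = 0.0011).

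Of 16 regulators of late cell cycle genes 5 fell, with a median of -0.18. Lin9 and Lin54 of the MuvB core, the latter the subunit that reads CHR letters, were among them. Lin9 fell by 0.59 ± 0.14 (SE; adjusted p = 0.02). Lin54 fell by 0.41 ± 0.11 (SE; adjusted p = 0.0334). Tfdp2, an E2F partner, fell by 0.36 ± 0.084 (SE; adjusted p = 0.0187). These 3 calls were lost with probe sets averaged, at -0.35 for Lin9, -0.17 for Lin54 and -0.19 for Tfdp2 (adjusted p = 0.0829, 0.339 and 0.0809), and without some single arrays. Lin9 lost its call without proliferating replicate 3 and senescent replicates 1 and 3 (adjusted p = 0.0650, 0.0704 and 0.0564). Lin54 lost it without proliferating replicates 2 and 3 and senescent replicates 1 and 3 (0.0788, 0.109, 0.0949 and 0.104) and on centring (0.0681), and Tfdp2 without proliferating replicates 2 and 3 and senescent replicate 3 (0.0657, 0.0704 and 0.0568). The number of regulators called lower was 1 without proliferating replicate 2, without proliferating replicate 3 or without senescent replicate 3, and 2 without senescent replicate 1. In none of the 4 lists did limma call a gene higher (0 in each), and 0 had an unadjusted p under 0.05 in that direction.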

How the data were processed

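Total RNA of 6 samples, 3 proliferating and 3 senescent, was extracted with Trizol and hybridised as biotin-labelled cRNA, 1 array per sample, per the labels' protocols. Deposited log2 values, 1 for each probe set, came from RMA as run by the authors, per the submitters' processing notes. RMA forces the arrays to 1 distribution, so a change is relative to the other genes, and it shrinks changes at both ends of the brightness range. After sorting, values of equal rank differed between arrays by 0.123 or less. Software versions and batches were not given in the sources used here. The number of arrays limits the precision.

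Of 45101 probe sets, 64 were controls, 34945 were paired with 1 gene symbol and 932 with several. Symbols were updated through the Entrez number with a RefSeq table of GRCm38.p6 (34741 matched, 204 kept as given). Each of 18193 genes was read from its brightest probe set by mean over the 6 arrays. Groups came from the sample labels. The contrast senescent minus proliferating was fitted with limma 3.58.1 (lmFit, eBayes; R 4.3.3), with no covariate, Benjamini-Hochberg adjustment over all genes and a threshold of 0.05 (median SE 0.0884, 4 residual and 4.22 prior degrees of freedom). The fit was also run over all 45037 probe sets that were not controls. The procedure was tested on simulated data, where 71.6% of 67 genes changed by 0.5 (log2) were recovered. Of the genes changed by 1 or 2, 100% were recovered, and 11 unchanged genes were called. Background was taken from 44 olfactory receptor probe sets, at the 95th percentile of their means. Promoter windows came from RefSeq. Plots used Python 3.11.15 with matplotlib 3.10.9.

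The members, gene lists, motifs and marker lists were chosen with earlier results of these data known, so no list was tested as a set. All members are named by sub-complex. Values on every array are given for called members that changed by at least 0.5 and for every member that rose, with Bub3, Mad1l1, Spc25 and Nsl1 added after their values were seen. Of each related list up to 3 called genes are named by size in each direction, and Cdkn1a as the arrest gene. Alternatives covered the probe set per gene, the variance model, array weights, the scaling, filters on dim genes, a replicate block and leaving out each array.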

Additional observations from a re-analysis of the deposited data

How the results depend on the processing

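Of the 27 members called lower, 22 passed under all 15 alternatives, and Cenpf, Cenpl, Zwilch, Incenp and Cdca8 were the exceptions. Members called higher numbered 0 with the mean of all probe sets per gene, 0 with spike-in scaling and 2 among genes above the median level. Spike-in scaling moved the members' median to -1.17 and called 15145 of all genes lower and 175 higher, with 23 kinetochore partners, 17 anaphase promoting complex genes and 16 regulators lower. It turned the sign of Nsl1 (-0.32), Mau2 (-0.40), Cenpb (-0.59), Cenpt (-0.55), Zwint (-0.22), Zw10 (-0.53), Clasp1 (-0.50) and Cdc27 (-0.54), of which Zwint alone was called as deposited; by construction it shifts every gene alike on an array. Without probe sets of the type that can bind several transcripts, Pds5a read 0.28, from a different probe set. With the mean of probe sets 5 anaphase promoting complex genes and 2 regulators were lower, and regulators called lower numbered 2 with centring on middle-level genes and 8 among genes above the median level; the cause was not tested. Leaving out each array in turn gave 9 to 15 partners, 6 to 10 anaphase promoting complex genes and 1 to 4 regulators lower, and 1129 to 1563 of all genes higher, with fewer samples in each fit. Whether the replicate numbers pair the samples is not stated. Deviations of same-numbered arrays had correlations of 0.094, -0.068 and -0.153, and those of differently numbered arrays -0.213 to 0.241. With 3 arrays per group these values cannot show or exclude a pairing. With a replicate block 24 members and 2 regulators were lower, without Cenpl, Zwilch, Incenp and Lin54 (adjusted p = 0.0611, 0.0743, 0.0599 and 0.0554). Precision was limited by 3 arrays per group.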
